A study of Homo sapiens with 6 samples.

Results

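The E2 ubiquitin-conjugating enzymes were compared in A549, an established line from a human lung adenocarcinoma, between control and FSCN1-silenced cultures. The members are the protein-coding genes of the deposited count table whose symbol begins with UBE2. They number 34 of the 30230 genes in the table, of which 17075 are protein coding. The 3 NC libraries come from cells that received the control construct, which the labels call a control plasmid and the study's methods a scrambled siRNA. The 3 siFSCN1 libraries come from cells that received siFSCN1-1926, an siRNA against FSCN1, the actin-bundling protein fascin. All 6 are polyA RNA of 1 cell line with no other allele or agent named. The study calls the 3 libraries of a group biological replicates, and the p-values measure the spread between them.

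Ubiquitin is activated by an E1 enzyme, passed to the catalytic cysteine of an E2, and attached to a substrate with the help of an E3 ligase, which chooses the substrate. The E2 has much of the say in which kind of chain is built, and so in whether the substrate is degraded by the proteasome or changed in its activity. Some proteins with the E2 fold carry the ubiquitin-like modifiers SUMO, NEDD8 or ISG15, and a few lack the catalytic cysteine and act as partners. In dividing cells UBE2C and UBE2S serve the anaphase-promoting complex, the E3 that destroys cyclins and securin at the end of mitosis. UBE2C starts the chain and UBE2S extends it.

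Library totals ran from 27967301 to 36560919 counts. FSCN1 itself fell from 214 ± 4.67 CPM (counts scaled to the size of the library) in NC to 14.4 ± 3.37 CPM in siFSCN1 (mean ± SD, n = 3 each). This is a log2 fold change of −3.89 (edgeR quasi-likelihood test, Benjamini-Hochberg adjusted p = 8.1e-16). The 8 genes listed as A549 markers, none of them a marker of lung lineage, were all above 1 FPKM (a level per transcript length). The 4 endothelial and 6 fibroblast markers were at or under 1 FPKM, and so were the blood cell markers PTPRC, CD3E and HBB. The blood cell marker CD14, which made up nearly all of the sum of that list, ran from 2.79 to 2.99 FPKM in NC and from 3.86 to 4.82 FPKM in siFSCN1. The share of counts from mitochondrial protein-coding genes was 8.93% ± 0.341 in NC and 12.7% ± 0.106 in siFSCN1. The part of CD14-bearing cells or of mitochondrial RNA in the differences given here was not tested.

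Of the 34 members, 33 had enough counts to be tested. UBE2L5 had no more than 2 counts in any library. Among the 33, 17 were lower and 11 were higher in siFSCN1 (p under 0.05 after adjustment over the 17076 genes tested), and 5 did not pass. In the background of all tested genes 33.2% were lower and 35.1% were higher by the same rule. A group of 4 members, UBE2Q1, UBE2N, UBE2S and UBE2C, also fell at least 2-fold, while 0 rose at least 2-fold. The matching background shares were 4.85% lower and 11.7% higher. In CPM, the libraries of the 2 groups did not overlap for 18 members that were lower in siFSCN1 and 11 that were higher, against 34.4% and 36.8% of all genes.

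The median log2 fold change of the 33 members was −0.11, with a range from −2.31 to 0.52, beside 0.03 for all genes. This median and the split depend on the scaling. With library totals alone the median was 0.08, with 13 members lower and 16 higher, and the median of all genes was then 0.22. The fall of UBE2Q1, UBE2N, UBE2S and UBE2C kept its direction under every alternative listed for these genes. The members of small change, UBE2V1, UBE2D2, UBE2G1, UBE2A, UBE2Z, UBE2W, UBE2E1 and UBE2H, changed direction under at least 1 alternative.

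**Figure D1:**
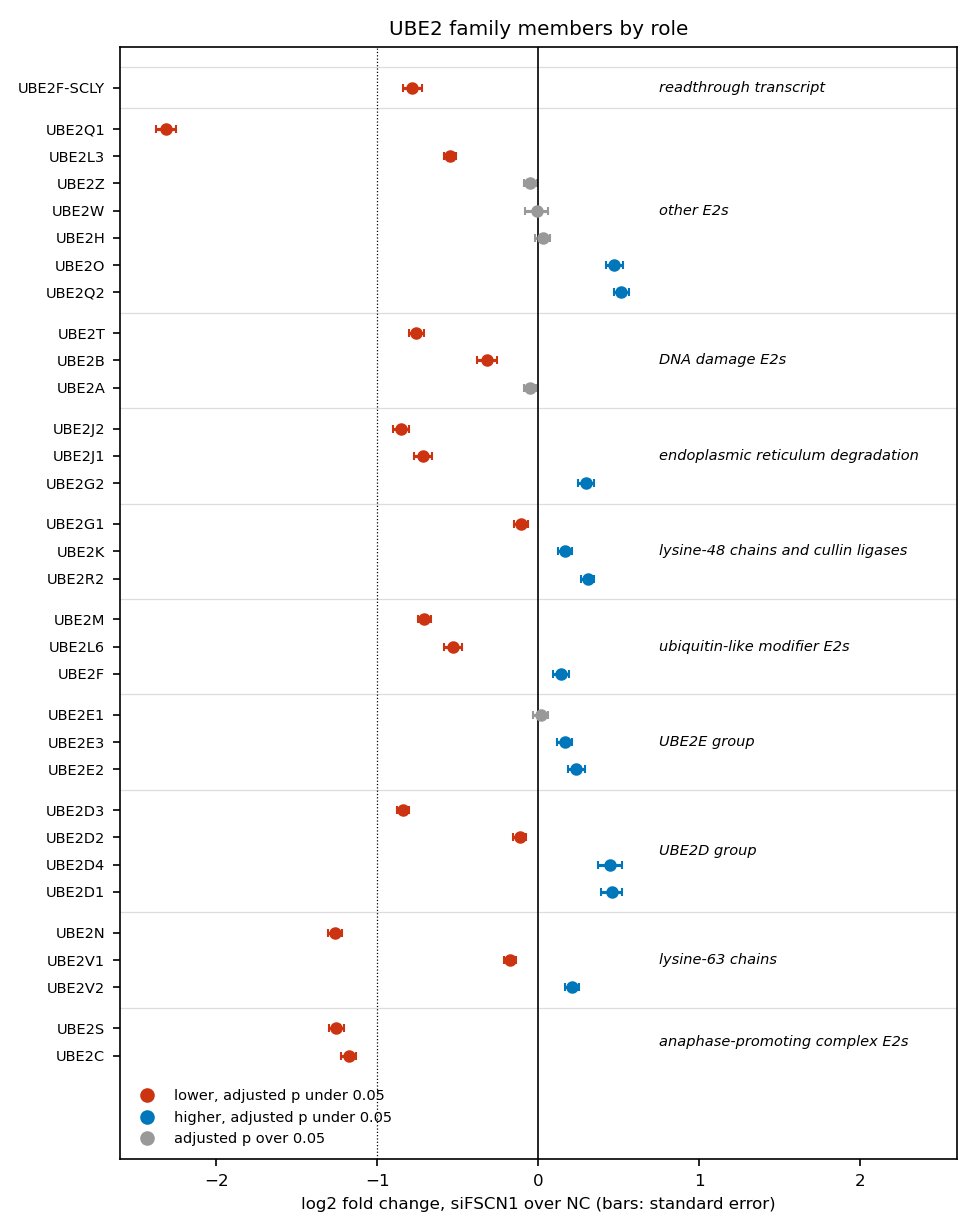
Log2 fold change of siFSCN1 over NC for 32 of the 33 tested UBE2 members, grouped by role (points: edgeR estimate from 3 libraries per group; bars: standard error; dotted line: 2-fold lower). UBE2Q1 lies farthest to the left at −2.31, UBE2N, UBE2S and UBE2C follow beyond the 2-fold line, and no member lies beyond 0.52 on the right.

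UBE2S and UBE2C, the pair that works with the anaphase-promoting complex, stood near the top of the family in control cells. The study had picked both as lowered genes from these same libraries, so their p-values here are no independent support. For UBE2S the study also reports a decrease by RT-qPCR, and it names no such check of UBE2C. Levels between genes were compared as FPKM. UBE2S (ENSG00000108106, GRCh38 chr19:55399745-55407788, minus strand) read 143, 145 and 139 FPKM in NC and 73.0, 65.2 and 62.1 FPKM in siFSCN1. Every siFSCN1 library was thus below every NC library. In CPM, UBE2S went from 500 ± 12.7 to 209 ± 15.4, a log2 fold change of −1.26 ± 0.046 (SE) with an adjusted p of 7.79e-14.

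UBE2C (ENSG00000175063, chr20:45812576-45816957, plus strand) read 82.7, 81.7 and 85.9 FPKM in NC and 43.8, 41.2 and 39.2 FPKM in siFSCN1. The groups did not overlap, and the lowest NC library was well above the highest siFSCN1 library. In CPM, UBE2C went from 135 ± 2.85 to 59.7 ± 2.88, a log2 fold change of −1.18 ± 0.046 with an adjusted p of 1.75e-13. Its log2 fold change was short of 2-fold under 3 alternatives, at −0.99 with library totals, −0.99 on log2(FPKM + 1) and −0.98 with the trend of fold change with abundance removed. UBE2S was short of 2-fold under the last of these, at −0.96. Among all 17076 genes ordered from the most lowered, UBE2S was at place 419 and UBE2C at place 525.

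The ratio of the chain-extending to the chain-starting enzyme was taken library by library. On the log2 CPM scale UBE2S over UBE2C was 1.91, 1.94 and 1.82 in the NC libraries and 1.86, 1.78 and 1.79 in the siFSCN1 libraries. The means were 1.89 ± 0.065 and 1.81 ± 0.042. The difference of −0.08 had a two-sided exact permutation p of 0.2, where 3 against 3 libraries allow no p below 0.1. The 2 groups overlapped, so a difference in the ratio was not detectable with 3 libraries per group.

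UBE2Q1 (ENSG00000160714, chr1:154548577-154559028, minus strand) fell the most of the family, although it is less known than the mitotic pair. It read 19.5, 19.3 and 19.4 FPKM in NC and 4.97, 4.26 and 3.94 FPKM in siFSCN1. The control libraries were close together and the lowest was well above the highest siFSCN1 library. Its CPM went from 102 ± 1.43 to 20.6 ± 2.25, a 4.96-fold fall (log2 fold change −2.31 ± 0.064, adjusted p = 2.96e-15), and it was at place 33 of all genes ordered from the most lowered. Its paralog UBE2Q2 moved the other way, with 8.29, 8.64 and 8.80 FPKM in NC and 13.6, 13.8 and 13.9 FPKM in siFSCN1. UBE2Q2 rose the most of the family, with a log2 fold change of 0.52 ± 0.049 (adjusted p = 3.21e-08). The FPKM ratio of UBE2Q1 to UBE2Q2 was 2.27 ± 0.081 in NC and 0.319 ± 0.042 in siFSCN1, so the more abundant of the 2 paralogs differed between the groups.

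UBE2N (ENSG00000177889, chr12:93405673-93441947, minus strand) is the E2 of non-degradative ubiquitin chains in DNA repair and inflammatory signalling, and it works as a heterodimer with the inactive E2-like proteins UBE2V1 or UBE2V2. It read 19.01, 19.1 and 19.5 FPKM in NC and 9.46, 8.58 and 8.90 FPKM in siFSCN1. All siFSCN1 libraries lay below all NC libraries, and the log2 fold change was −1.26 ± 0.043 (adjusted p = 3.5e-14). The partners did not fall alike. UBE2V1 went from 191 ± 4.43 to 169 ± 0.937 CPM (log2 fold change −0.18, adjusted p = 0.000348), a call that 5 of 16 alternatives lost, among them library totals, where its value was 0.01. UBE2V2 went from 67.1 ± 2.17 to 77.5 ± 1.04 CPM (log2 fold change 0.21, adjusted p = 0.000581). The FPKM of UBE2N over the sum of both partners was 0.486 ± 0.013 in NC and 0.215 ± 0.0081 in siFSCN1, with no overlap between groups.

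**Figure D2:**
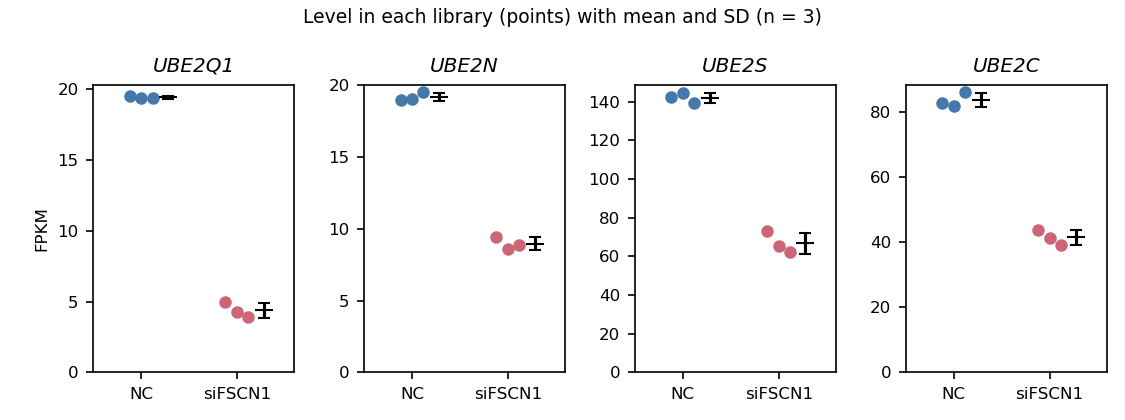
FPKM of the 4 members that fell at least 2-fold, in each library (points), with the mean and SD of 3 libraries per group beside them, on axes that start at 0. In all 4 panels each siFSCN1 library lies below each NC library, and UBE2Q1 drops the furthest in proportion, from 19.4 to 4.39 FPKM.

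Overlapping genes bear on the counts of these members. UBE2N shares 41.6% of its annotated exonic bases with NUDT4 on the opposite strand. NUDT4 read 23.9 ± 2.44 CPM in NC and 21.7 ± 0.221 CPM in siFSCN1 and did not pass (adjusted p = 0.0673). The kit keeps the strand, but whether the counting used it is not given in the sources used here, so reads from UBE2N and NUDT4 cannot be told apart with certainty. UBE2Q1 shares 51 exonic bases with the antisense transcript UBE2Q1-AS1, which stayed under 1 CPM. UBE2S and UBE2C share no exon with another listed gene on the same strand. UBE2V1, a partner of UBE2N, shares 43.2% of its exonic bases on the same strand with the readthrough transcript PEDS1-UBE2V1. That transcript was at 0.16 and did not pass. Reads of the shared exons may be split between them, and the ratio of UBE2N to its partners rests on these reads.

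An siRNA can also bind mRNAs that match only its seed, bases 2 to 8 of the guide strand. The letters that pair with the seed of siFSCN1-1926, CTCTGGA, were therefore looked up on the mRNA strand of the longest 3′ UTR that GENCODE release 44 gives each gene. Windows of 30 bases are shown for FSCN1, the intended target, and for the members among the 4 that fell at least 2-fold whose 3′ UTR holds these letters (capitals: the seed match; mRNA strand, 5′ to 3′). FSCN1 is at chr7:5605781-5605810, plus strand; UBE2Q1 at chr1:154549777-154549806, minus strand; UBE2N at chr12:93406772-93406801, minus strand; UBE2C at chr20:45815879-45815908, plus strand.
FSCN1: gctctgagccttatttCTCTGGAagcggct
UBE2Q1: gatttctcctcaaggcCTCTGGAgcaacca
UBE2N: tcgcagatgctcaagtCTCTGGAataaaat
UBE2C: cacacatgctgccgagCTCTGGAaaaaccc

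Aligned without gaps to the 19 bases of the FSCN1 target, 14 were identical in UBE2N, 10 in UBE2C and 9 in UBE2Q1. Each count includes the 7 seed letters, which the windows were chosen to hold. The unbroken match counted from the 5′ end of the guide strand was 9 bases in UBE2N, 8 in UBE2C and 0 in UBE2Q1. A seed match with at least 14 identical bases was found in 56 of the 13246 tested genes with an annotated 3′ UTR (0.423%). Only the 2542 genes with the letters could be among these 56. The cut-off of 14 was taken from the UBE2N site itself, so this share is no test of that site. The longest annotated 3′ UTR of UBE2S, of 1691 bases, does not hold the letters. Which 3′ UTRs these cells use was not tested. Among the 32 members with a 3′ UTR, 11 (34.4%) held them, against 19.2% of the 13246 genes. Of these 11 members 7 were lower, 2 were higher and 2 did not pass, beside 1107 lower of the 2542 genes with the letters and 5015 lower of all 13246. Of all genes that fell at least 2-fold, 34.5% (229 of 663) held the letters. A match is a stretch of letters and not a measured site, and its part in the falls was not tested.

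Ordered by mean NC FPKM, the family began with UBE2S at 142 ± 2.71, UBE2M at 99.9 ± 1.74, UBE2C at 83.5 ± 2.21, UBE2T at 43.4 ± 1.52 and UBE2L3 at 40.3 ± 0.935. It ended with UBE2W at 1.49 ± 0.096, apart from UBE2L5 near 0. None of the first 5 overlapped its neighbour among the NC libraries, and 10 of the 32 neighbouring pairs in the whole order did. UBE2V1 and UBE2D2, for example, stood next to each other and overlapped. In siFSCN1 the order at the top was UBE2M at 68.7 ± 3.83, UBE2S at 66.8 ± 5.59 and UBE2C at 41.4 ± 2.32, with UBE2M and UBE2S overlapping so that their order was not resolved, while UBE2Q1 moved from place 11 to place 31. By CPM, which is not per length, UBE2S was also first but UBE2C was 10th.

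The summed FPKM of the 34 members was 785 ± 9.78 in NC and 610 ± 13.4 in siFSCN1. UBE2S alone made up 18.1% ± 0.50 of that sum in NC and 10.9% ± 0.68 in siFSCN1. The share of UBE2C went from 10.6% ± 0.22 to 6.79% ± 0.23 and that of UBE2Q1 from 2.47% ± 0.043 to 0.719% ± 0.070. As a share of all counts, the family took 0.328% ± 0.0026 in NC and 0.279% ± 0.0027 in siFSCN1.

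**Figure D3:**
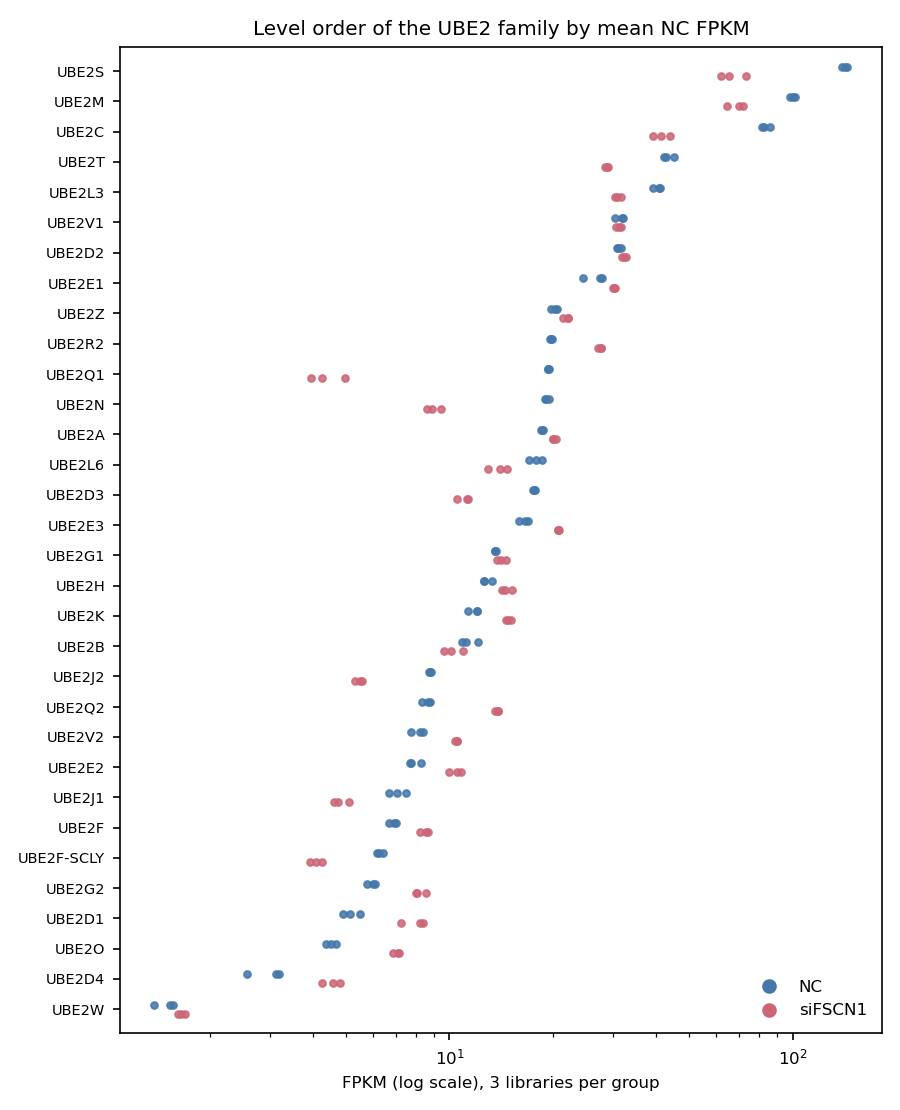
FPKM on a log scale for 32 of the 33 tested members in the 3 NC and 3 siFSCN1 libraries, ordered by the NC mean. UBE2S, UBE2M and UBE2C lead in both groups, and UBE2Q1 lies with UBE2R2 and UBE2N in NC but near the bottom of the order in siFSCN1.

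The E2s of ubiquitin-like modifiers were mostly lower. UBE2M, which loads NEDD8 onto cullins, read 98.1, 100 and 102 FPKM in NC and 71.6, 70.0 and 64.3 FPKM in siFSCN1 without overlap (log2 fold change −0.71 ± 0.042, adjusted p = 4.51e-11). UBE2L6, the E2 of ISG15, had a log2 fold change of −0.53. The other NEDD8 E2, UBE2F, had a small rise of 0.14 that missed the threshold under 4 of 16 alternatives (without NC replicate 2, without siFSCN1 replicate 3, with DESeq2 and with no filter on low counts). Its gene overlaps the readthrough transcript UBE2F-SCLY on the same strand, which was lower at −0.78. Reads of the shared exons may be split between them. UBE2F-SCLY shares 72.3% of its exonic bases with SCLY and 21.5% with UBE2F, both on the same strand. SCLY was itself lower at −0.96, so the value of UBE2F-SCLY may hold SCLY reads and is not clearly that of an E2.

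Among E2s tied to DNA damage, UBE2T, which serves the Fanconi anemia ligase, went from 43.4 ± 1.52 FPKM in NC to 28.8 ± 0.251 FPKM in siFSCN1. Its libraries did not overlap between groups and its log2 fold change was −0.76 ± 0.046 (adjusted p = 5.89e-11). UBE2B, a RAD6 homolog, had a log2 fold change of −0.32 (adjusted p = 0.000154), a call lost with library totals and in both limma fits of FPKM. The other RAD6 homolog, UBE2A, did not pass, with 122 ± 1.82 CPM in NC and 118 ± 0.60 CPM in siFSCN1.

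For UBE2T and UBE2S the RefSeq promoter table gives the 250 bases before the start (GRCh38.p14). They are shown because cell-cycle genes often carry a CHR element together with CCAAT boxes. The search covered CHR as TTTGAA or TTCGAA and CCAAT, on both strands, with motifs in capitals. None of these motifs overlaps another in the 2 windows. UBE2S is at chr19:55407789-55408038, minus strand, and UBE2T at chr1:202341937-202342186, minus strand.
UBE2S: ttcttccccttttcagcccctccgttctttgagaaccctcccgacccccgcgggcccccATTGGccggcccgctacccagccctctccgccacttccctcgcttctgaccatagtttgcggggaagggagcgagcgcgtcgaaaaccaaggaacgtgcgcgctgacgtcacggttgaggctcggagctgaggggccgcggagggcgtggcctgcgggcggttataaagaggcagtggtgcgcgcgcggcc
UBE2T: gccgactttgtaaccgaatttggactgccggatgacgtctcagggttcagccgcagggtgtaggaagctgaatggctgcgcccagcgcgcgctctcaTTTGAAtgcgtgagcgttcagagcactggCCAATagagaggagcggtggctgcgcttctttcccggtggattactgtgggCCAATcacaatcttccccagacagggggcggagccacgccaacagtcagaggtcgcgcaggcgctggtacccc

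UBE2T holds 1 CHR match and 2 CCAAT matches, and UBE2S holds 1 CCAAT match on the opposite strand and no CHR letters. In UBE2T the CHR letters begin 153 bases before the start and the CCAAT matches 124 and 73 bases before it. The CHR letters thus lie farther from the start than both CCAAT matches, and whether they act as an element was not tested. Among all 35116 promoter windows of this length, 14.3% held a CHR match, 32.01% a CCAAT match and 5.05% both. The table matched 26 of the 33 tested members, UBE2N among them with neither motif, and UBE2C and UBE2Q1 not among them. UBE2T was chosen for its motifs after they were seen. The overlapping windows of UBE2F, which was higher, and UBE2F-SCLY, which was lower, hold the same number of matches, 1 CHR and 2 CCAAT. The members have 38 windows, some genes more than 1. Of these 7.89% held a CHR match and 28.9% a CCAAT match, both below the shares of all windows. Both motifs together were in 3 windows (7.89%), above the 5.05% of all windows. The overlapping windows of UBE2F and UBE2F-SCLY are among these 3.

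The 4 UBE2D paralogs, general-purpose E2s that pair with many ligases, split. UBE2D3 went from 223 ± 3.48 to 124 ± 3.94 CPM (log2 fold change −0.84 ± 0.039, adjusted p = 1.41e-12). UBE2D1 read 5.12, 4.88 and 5.48 FPKM in NC and 7.24, 8.38 and 8.22 FPKM in siFSCN1, all of them above NC (log2 fold change 0.46 ± 0.065, adjusted p = 6.02e-06). UBE2D4 read 3.13, 2.57 and 3.18 FPKM in NC and 4.79, 4.59 and 4.26 FPKM in siFSCN1, again without overlap (0.45 ± 0.075, adjusted p = 3.9e-05). UBE2D2 had a log2 fold change of −0.12 (adjusted p = 0.0134), and its direction turned under 5 of 16 alternatives, library totals among them, to 0.07. The sum of the 4 in FPKM was 56.9 ± 0.84 in NC and 55.8 ± 0.81 in siFSCN1, and the part of UBE2D3 in it went from 31.0% ± 0.59 to 19.8% ± 0.76. FPKM are not TMM scaled, and UBE2D2 went from 31.2 to 32.2 FPKM but from 139 to 129 CPM. The near-equal sums thus hold for FPKM only, and whether the paralogs make up for each other was not tested.

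The UBE2E paralogs UBE2E2 and UBE2E3 were higher by 0.24 and 0.16 on the log2 scale. UBE2E1 did not pass with 112 ± 6.98 CPM in NC and 113 ± 1.42 CPM in siFSCN1, but passed as higher under 5 of 16 alternatives, with values up to 0.22. In the degradation of misfolded proteins at the endoplasmic reticulum, the membrane-anchored UBE2J2 and UBE2J1 were lower and the soluble UBE2G2 was higher. UBE2J2 went from 51.8 ± 0.15 to 28.7 ± 0.526 CPM (log2 fold change −0.85, adjusted p = 3.73e-11) and UBE2J1 from 36.97 ± 1.72 to 22.5 ± 1.39 CPM (−0.72, adjusted p = 2.69e-09). UBE2G2 went from 53.7 ± 1.07 to 66.0 ± 2.71 CPM (0.30, adjusted p = 3.39e-05).

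Of UBE2R2, UBE2K and UBE2G1, listed together as E2s of degradative chains and cullin ligases, the first 2 were higher and the last was lower. UBE2R2, a close relative of CDC34, went from 111 ± 1.82 to 138 ± 2.29 CPM (log2 fold change 0.31, adjusted p = 1.74e-06). UBE2K had a log2 fold change of 0.16. UBE2G1, the partner of cullin-RING ligases beside CDC34, had one of −0.11 with an adjusted p of 0.042. That call was lost when any 1 of 5 libraries was left out, all but siFSCN1 replicate 1, with no filter and with the stricter filter, and the direction turned with library totals, to 0.08.

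Of the remaining members, UBE2O, a large enzyme that joins E2 and E3 activity, read 4.66, 4.53 and 4.36 FPKM in NC and 6.85, 7.15 and 7.06 FPKM in siFSCN1. Each siFSCN1 library was above each NC library (log2 fold change 0.47 ± 0.053, adjusted p = 3.08e-07). UBE2L3, the E2 of HECT and RBR ligases such as parkin, went from 195 ± 3.25 to 133 ± 1.95 CPM (−0.55, adjusted p = 3.04e-10). UBE2Z, UBE2W and UBE2H did not pass, with log2 fold changes of −0.05, −0.01 and 0.03. UBE2H did pass as higher under 5 of 16 alternatives, with values up to 0.23.

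**Figure D4:**
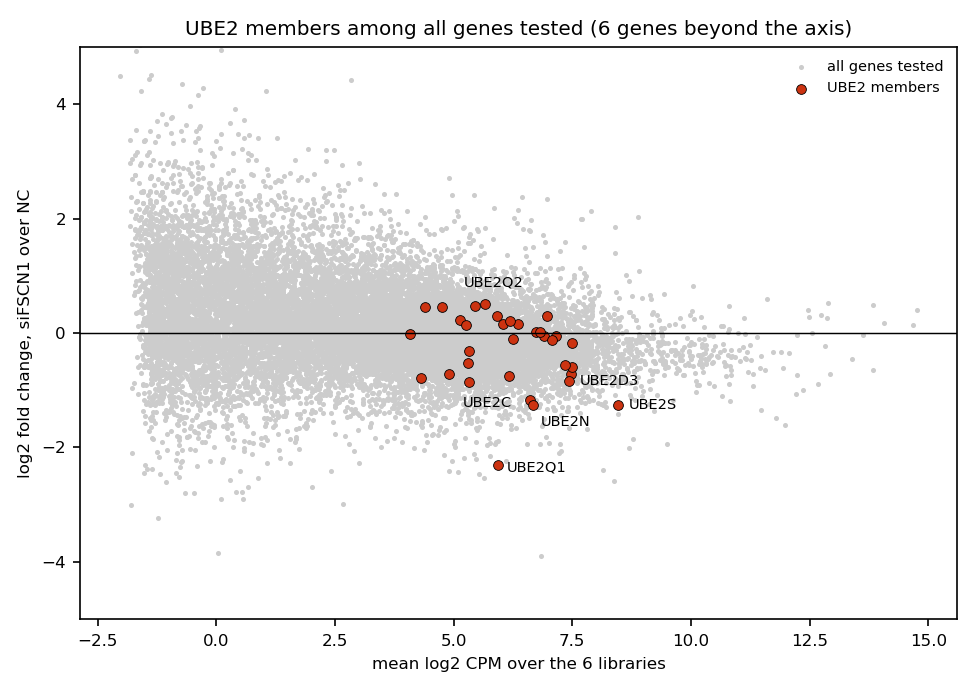
Log2 fold change of siFSCN1 over NC against mean log2 CPM for all 17076 genes tested (grey), with the 33 UBE2 members in red. The members lie among genes of middle to high level, UBE2S is the most abundant of them, and UBE2Q1 lies near the lower edge of genes of its level.

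The steps around the E2s were taken from lists of known pathway genes. The counts of each list are to be read beside the shares of all tested genes, 33.2% lower and 35.1% higher. All 4 genes that encode ubiquitin were lower, with a median of −0.42 on the log2 scale. Of 10 E1 enzymes or E1 subunits, 7 were lower, 0 were higher and 3 did not pass, with a median of −0.21. The largest falls were in NAE1, a subunit of the NEDD8 E1, at −0.69, and in UBA2, a subunit of the SUMO E1, at −0.42. UBA1, the main ubiquitin E1, went from 323 ± 6.31 to 281 ± 8.69 CPM (−0.20, adjusted p = 9.64e-05). With library totals 3 of the 10 were lower.

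Of 8 E2s and E2-like proteins with other names, 5 were lower, 1 was higher and 2 did not pass. ATG3, the E2 of autophagy that acts on the LC3 family, was at −0.61 and ATG10, which conjugates ATG5, at −0.51. The inactive relative TSG101, a sorting factor of endosomes, was at −0.43, and BIRC6, a giant E2 and E3 hybrid, rose by 0.38. CDC34, the E2 of SCF ligases, had 78.2 ± 1.65 CPM in NC and 80.7 ± 1.37 CPM in siFSCN1 and did not pass (adjusted p = 0.379).

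The anaphase-promoting complex, which UBE2C and UBE2S serve, was lower in 11 of 17 genes, its regulators included, and higher in 3, with 3 that did not pass and a median of −0.42. CDC26, a small subunit, read 12.2 ± 0.873 CPM in NC and 2.91 ± 0.86 CPM in siFSCN1 (log2 fold change −2.06, adjusted p = 1.23e-09). The coactivator FZR1 went from 35.9 ± 1.98 to 13.3 ± 1.32 CPM (−1.44, adjusted p = 2.32e-12). CDC20, the other coactivator, went from 177 ± 1.24 to 77.5 ± 5.48 CPM (−1.19, adjusted p = 2.33e-13), a value near those of UBE2S and UBE2C. ANAPC2, which holds the catalytic centre with ANAPC11, was at −0.79. Among the 3 higher genes, ANAPC4 was at 0.51.

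Substrates of the complex were lower in 12 of 15 genes and higher in 1, with a median of −0.73. Of them 4 fell at least 2-fold, beside 4.85% of all tested genes. GMNN, the inhibitor of replication licensing, went from 58.3 ± 2.87 to 10.8 ± 1.23 CPM (log2 fold change −2.43, adjusted p = 3.94e-15). SKP2, the F-box protein that targets p27, was at −1.18, the mitotic kinase AURKA at −1.08 and CDCA5, which protects sister chromatid cohesion, at −1.03. HMMR, a spindle protein, rose by 0.21. These are transcript levels and not measures of protein or of degradation.

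Of 13 genes of cullin-RING ligases and their NEDD8 cycle, 3 were lower, 2 were higher and 8 did not pass, with a median of 0.00. RBX1, the RING subunit, was at −0.64 and CUL5 at −0.34, while CUL7 was at 0.61 and CUL4B at 0.32. With library totals 1 of the 13 was lower and 9 were higher.

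**Figure D5:**
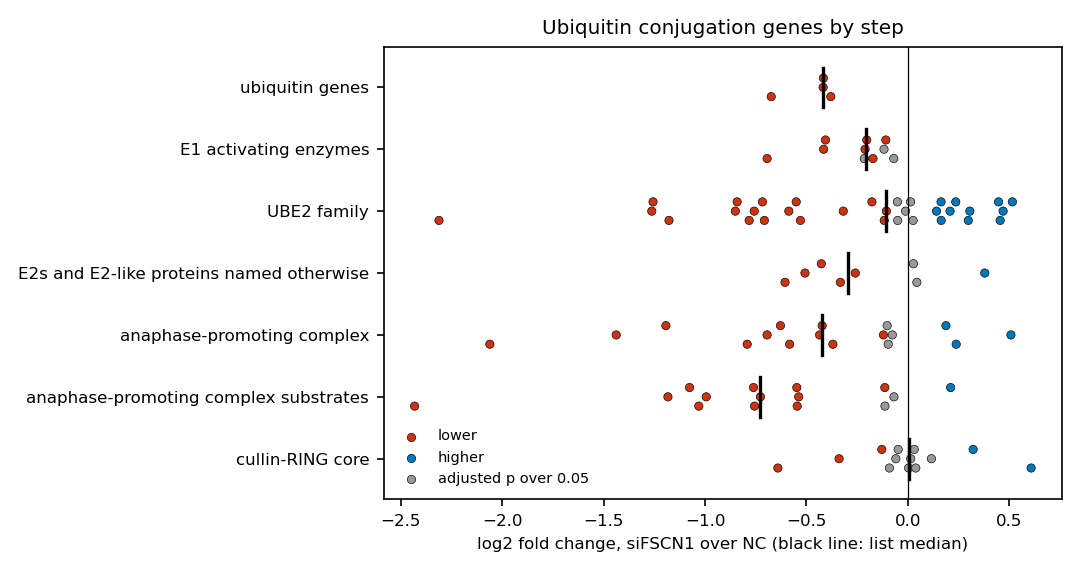
Log2 fold change of siFSCN1 over NC for the genes of each list (points, coloured by the edgeR test; black line: list median). The medians of the anaphase-promoting complex (−0.42) and its substrates (−0.73) lie to the left of that of the UBE2 family (−0.11), and the cullin-RING core lies at 0.00.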

How the data were processed

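Transcripts were measured by polyA RNA-seq in 3 NC and 3 siFSCN1 libraries of A549 cells. The gene counts were deposited by the authors as whole, unnormalised numbers, with FPKM (fragments scaled to transcript length and library size) deposited beside them. The labels name TopHat2 as aligner and the build GRCh38, while the study's methods name HISAT2, and the library kit also differs between these sources. The counting tool's strand setting is not given in the sources used here. The members and gene lists were chosen with earlier results of these data known. Genes to be described library by library were, by rule, UBE2C, UBE2S, members changed at least 2-fold, the 4 largest rises and falls and the 3 members of highest NC FPKM. Pathway genes were named by the largest changes (up to 4 a list) plus CDC20, FZR1, CDC34 and UBA1.

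Counts were tested with edgeR 4.0.16 in R 4.3.3 (filterByExpr, TMM scaling, quasi-likelihood test, Benjamini-Hochberg adjustment over 17076 genes). A call needed an adjusted p under 0.05, and a 2-fold call a fitted change of at least 2-fold as well. CPM use TMM library sizes. FPKM served for levels between genes and are not TMM scaled, so small FPKM and CPM changes can differ in sign. The script was tested on simulated data before use. Library totals were 27967301 to 36560919 counts, and libraries of a group differed beyond counting noise, so none was a duplicate. Alternatives were RLE, upper quartile and library-total scaling, DESeq2 1.42.0, limma 3.58.1 on log2(FPKM + 0.1) and log2(FPKM + 1), other filters, a replicate block, each library left out, removal of the trend with abundance, and a test against a 2-fold threshold. Positions and 3′ UTRs are from GENCODE release 44 (GRCh38), and promoters from RefSeq. Another 23 rows with UBE2 symbols are of other gene types and are no members. Some genes are counted in the totals but not reported here by name.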

Additional observations from a re-analysis of the deposited data

How the results depend on the processing

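Of the 33 tested members, 25 kept their direction under each of the 16 alternatives run for them, and 8 did not. The family median became positive with upper quartile scaling (0.01), library totals (0.08), limma on log2(FPKM + 0.1) (0.0596) and log2(FPKM + 1) (0.06), and with the abundance trend removed (0.07). The median of all genes was then 0.15, 0.22, 0.17, 0.08 and −0.01. The split of 17 lower and 11 higher became 14 and 13 with upper quartile scaling, 13 and 16 with library totals, 13 and 15 with either limma fit, and 14 and 16 with the trend removed. Short of 2-fold were UBE2C with library totals (−0.99), log2(FPKM + 1) (−0.99) and the trend removed (−0.98), and UBE2S with the trend removed (−0.96), where 2 members were past 2-fold. With library totals 3 E1 enzymes were lower, 3 E2s of other names were lower and 3 higher, and 1 cullin-RING gene was lower and 9 were higher. By CPM in place of FPKM the NC place of UBE2C was 10. The cause was not tested.

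Changes of direction among members were as follows. With upper quartile scaling UBE2D2 was at 0.0013, UBE2G1 at 0.012, UBE2A at 0.066, UBE2Z at 0.068 and UBE2W at 0.11. With library totals UBE2V1 was at 0.00998, UBE2D2 at 0.071, UBE2G1 at 0.081, UBE2A at 0.14, UBE2Z at 0.14 and UBE2W at 0.18. On log2(FPKM + 0.1) UBE2D2 was at 0.049, UBE2G1 at 0.0596, UBE2A at 0.11, UBE2Z at 0.12 and UBE2W at 0.15, and on log2(FPKM + 1) the same genes were at 0.048, 0.056, 0.11, 0.11 and 0.094. With the trend removed UBE2V1 was at 0.0700, UBE2D2 at 0.11, UBE2G1 at 0.072, UBE2A at 0.16 and UBE2Z at 0.18. UBE2E1 was at −0.0043 with RLE scaling and with DESeq2, and UBE2W at 0.018 with the stricter filter. In the fits without 1 library, UBE2E1 ran from −0.046 to 0.034, UBE2W from −0.067 to 0.0084 and UBE2H from −0.012 to 0.049.

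Without each library in turn, 16 to 17 members were lower and 10 to 11 higher, and 4 were past 2-fold each time. The log2 fold change ran from −1.33 to −1.22 for UBE2S, −1.22 to −1.15 for UBE2C and −4.11 to −3.77 for FSCN1, the family median from −0.12 to −0.10, and the UBE2S minus UBE2C difference from −0.12 to −0.05. Same-numbered libraries did not deviate together (correlations −0.052, 0.068 and −0.13), so the numbers do not pair them. With the replicate block 17 members were lower, 11 were higher and 4 were past 2-fold, as without it. With no filter 30230 genes were tested. At 3 libraries per group the smallest exact p is 0.1.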

Other observations

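A pair of processed pseudogenes of UBE2S were read at low level and in the direction of their parent. UBE2SP1 went from 0.541 ± 0.059 to 0.178 ± 0.029 CPM (n = 3 each) with a log2 fold change of −1.58 (edgeR adjusted p = 0.00252). UBE2SP2 went from 0.63 ± 0.085 to 0.217 ± 0.036 CPM with a log2 fold change of −1.51 (adjusted p = 0.00207). Reads of near-identical copies could be shared between them and UBE2S, whose level was far higher. The antisense transcript UBE2Q1-AS1 went from 0.368 ± 0.117 to 0.0496 ± 0.018 CPM and was too low to be tested.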
